A study of Gallus gallus with 4 samples.

Results

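The antibody transcripts of chicken trachea, the joining chain that links antibodies into polymers and the epithelial receptor that carries them into the airway were followed as 7 rows of a table of 26296 genes. They are the light chain gene IGLL1, the heavy chain rows VH26L1, VH26L2, VH26L8 and VH26L10, the joining chain gene IGJ and the polymeric immunoglobulin receptor gene PIGR. The rows were chosen by name, with their CPM in these libraries already known, so every difference between the groups in these 7 rows is given as a description and without a test. Total RNA of the trachea of chickens 42 days old was sequenced, with 2 libraries from birds kept in a chamber fed with hydrogen sulfide and 2 from a control chamber that received none. In the exposed chamber the gas was held between 3.5 and 4.5 mg/kg in weeks 0 to 3 and between 19.5 and 20.5 mg/kg in weeks 4 to 6. The labels give no strain or sex, and leave unsaid if 1 bird or a pool went into each library. Any p-value below therefore sets a group difference only against the variation between these libraries. Because each group had its own chamber, the gas and any other difference between the chambers cannot be told apart.

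Birds make their antibody light chains from a single lambda locus. Heavy and light chains diversify in the bursa of Fabricius, where stretches of upstream variable pseudogenes are copied into the one functional variable gene. Plasma cells below mucosal surfaces secrete polymeric antibody joined by the J chain, and the receptor encoded by PIGR, made by the epithelium, takes it up at the basal side and releases it into the secretions with a piece of itself, the secretory component. The antibody genes and the transporter are therefore products of different cells of the same mucosa. In tissue RNA, fewer cells of a type and less RNA per cell cannot be told apart.

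Depth was 22283320 and 22706119 counted reads for hydrogen sulfide replicates 1 and 2, and 17400644 and 16899066 for the controls. Levels are given as CPM, reads scaled to library depth, after TMM normalization, which corrects for differences in library composition. Reads of genes on the female W chromosome stood at 473 and 490 CPM before that step in hydrogen sulfide replicate 1 and control replicate 2, and at 147 and 143 in hydrogen sulfide replicate 2 and control replicate 1. Each group thus held 1 hen-like and 1 cock-like library, and folds within these pairs are given below. Cartilage markers, expected in a piece of trachea, summed to 20284 and 30839 CPM in the exposed libraries and to 6616 and 33821 CPM in the controls, so control replicate 1 stood apart.

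Of the antibody rows followed here, the light chain had the most reads. IGLL1, which the reference gene table lists also as IgL, stood at 1369 and 1095 CPM in hydrogen sulfide replicates 1 and 2 and at 6665 and 6249 CPM in control replicates 1 and 2. The lower control library thus held 4.56 times the level of the higher exposed one. The group means were 1232 ± 194 CPM after exposure and 6457 ± 294 CPM in the controls (SD, n = 2 libraries each), a log2 fold change of -2.39 (SE 0.41). Within the hen-like pair the log2 difference was -2.19 and within the cock-like pair -2.61. By number of reads, with no correction for gene length, IGLL1 ranked 2 among all genes of each control library, and 46 and 61 in hydrogen sulfide replicates 1 and 2.

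Among the heavy chain rows followed here, VH26L1 held nearly all the reads. This row reached 212 and 157 CPM under hydrogen sulfide, and 1024 and 1106 CPM without it. Its group means were 185 ± 38.5 and 1065 ± 58.2 CPM (SD, n = 2), a log2 fold change of -2.53 (SE 0.25), with -2.38 in the hen-like pair and -2.70 in the cock-like pair. The reference gene table, of chicken assembly GRCg7b, types VH26L1 as a constant region, whereas its name refers to a variable region. The annotation behind the counts is not known here, and heavy chain constant regions under other names were not looked for.

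The other heavy chain rows had few reads. VH26L10 reached 2.31 and 2.71 CPM under hydrogen sulfide and 11.4 and 9.55 CPM without it (log2 fold change -2.06, SE 0.29). VH26L8 stood at 2.45 and 0.814 CPM against 13.7 and 11.03 CPM (log2 fold change -2.92, SE 0.58). VH26L2 collected 1 and 23 reads under hydrogen sulfide but 288 and 99 in control replicates 1 and 2. The exposed libraries were lower than both controls in all 3 of these rows, but the sizes of the differences were unlike. For VH26L2 the log2 fold change was -4.29 (SE 1.15) with all libraries, -7.67 once hydrogen sulfide replicate 2 was left out and -3.36 once replicate 1 of that group was. For VH26L8 leaving out replicate 1 of the exposed group gave -3.91 and leaving out its replicate 2 gave -2.33. Reads of similar variable segments can be shared or dropped by the counting step, so the values of these rows are uncertain.

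The joining chain paralleled the light chain. IGJ, named JCHAIN in the reference table, reached 954 and 760 CPM under hydrogen sulfide and 5835 and 4335 CPM without it. The means were 857 ± 138 and 5085 ± 1061 CPM (SD, n = 2), a log2 fold change of -2.57 (SE 0.40), with -2.18 in the hen-like pair and -2.94 in the cock-like pair. The controls differed from each other more in IGJ than in IGLL1, by 0.43 against 0.09 on the log2 scale.

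The transporter did not share this pattern. PIGR reached 2045 and 1465 CPM under hydrogen sulfide and 1563 and 1021 CPM without it. The groups overlapped, since control replicate 1 lay above hydrogen sulfide replicate 2. The means were 1755 ± 410 and 1292 ± 383 CPM (SD, n = 2), and the log2 fold change of 0.44 (SE 0.36) was little larger than its error. It was 1.0 within the hen-like pair and -0.09 within the cock-like pair, and leaving out 1 library gave values from 0.15 without control replicate 2 to 0.79 without control replicate 1. In all, 6 of the 7 rows were lower in both exposed libraries than in both controls, and PIGR overlapped. Of all 16545 genes tested, 17.2% were lower in this way. Log2 fold changes of -2 or lower were found in the same 6 rows and in 0.447% of the genes tested, and nothing is read from either count because the rows were chosen with these values known.

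**Figure D1:**
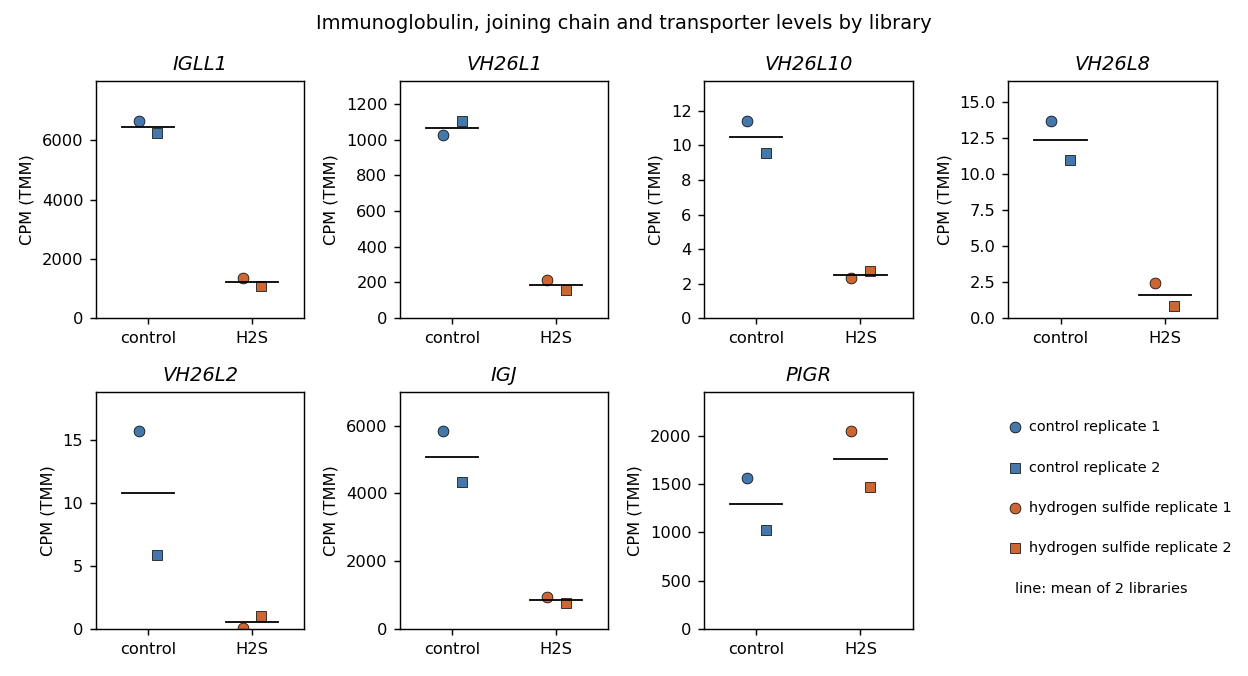
TMM-scaled CPM (linear axis from 0) of the 7 rows in each library, with circles for replicate 1, squares for replicate 2 and a line at the mean of 2 libraries. In IGLL1, IGJ and the 4 VH26L rows both exposed libraries lie below both controls, whereas the PIGR values of the groups overlap.

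As a share of all reads, the 5 immunoglobulin rows together made up 0.154% and 0.122% of hydrogen sulfide replicates 1 and 2, and 0.815% and 0.741% of control replicates 1 and 2. Exact 95% binomial intervals, which cover counting error only, ran from 0.121% to 0.155% over the exposed libraries and from 0.737% to 0.819% over the controls. The mean share was 0.138% ± 0.0222 after exposure and 0.778% ± 0.0526 in the controls (SD, n = 2), 5.63 times as high in the controls. PIGR alone took 0.198% and 0.143% of the reads of the exposed libraries and 0.165% and 0.102% of those of the controls.

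Set against the transporter of the same library, the 5 immunoglobulin rows together were the more heavily sequenced in the controls and the less heavily sequenced after exposure. For each PIGR read there were 4.94 and 7.23 immunoglobulin reads in control replicates 1 and 2, and 0.775 and 0.858 in hydrogen sulfide replicates 1 and 2. These are ratios of reads and not of molecules, since gene lengths were not taken into account. A ratio of this kind does not depend on how libraries are scaled, and on the log2 scale it averaged 2.58 ± 0.39 in the controls and -0.29 ± 0.10 after exposure (SD, n = 2), a difference of -2.87. For IGJ, the reads per PIGR read were 3.73 and 4.25 in the controls and 0.467 and 0.519 after exposure. In both comparisons the exposed libraries lay close together and far from both controls. At this group size (n = 2) no exact two-sided permutation p can lie below 0.333.

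The proportions of IGLL1, IGJ and VH26L1 to each other differed far less between the groups than their levels did. These rows were chosen with their values known, so this is a description only. For each IGLL1 read there were 0.697 and 0.694 IGJ reads in hydrogen sulfide replicates 1 and 2 and 0.694 in control replicate 2, with 0.875 in control replicate 1. Reads of VH26L1 per IGLL1 read were 0.155 and 0.144 under hydrogen sulfide, next to 0.154 and 0.177 without it. The groups overlapped in both ratios. With all 4 heavy chain rows summed, the ratio to IGLL1 was 0.158 and 0.148 against 0.160 and 0.181, and the groups did not overlap, by a narrow margin. The log2 differences of the first 2 ratios between groups were -0.16 for IGJ to IGLL1 and -0.15 for VH26L1 to IGLL1. The SDs of these ratios were 0.24 and 0.14 in the controls, and 0.0 after rounding and 0.08 in the exposed libraries.

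**Figure D2:**
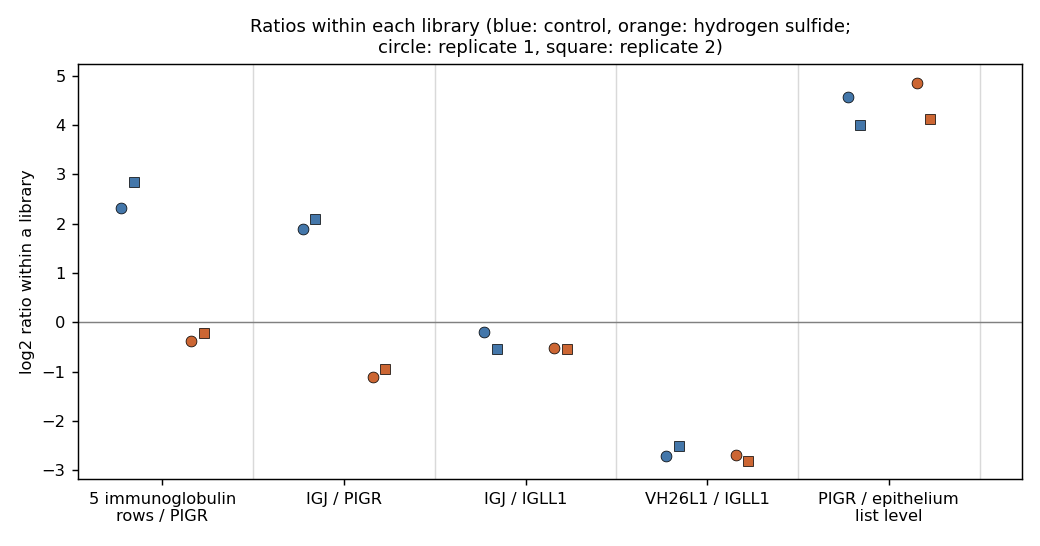
Log2 ratios within each library, with controls in blue, exposed libraries in orange, circles for replicate 1 and squares for replicate 2. The first 4 are ratios of reads and the last is log2 CPM of PIGR minus the mean log2 CPM of an epithelial gene list. Immunoglobulin to PIGR and IGJ to PIGR separate the groups, from 2.31 and 2.85 to -0.37 and -0.22 for immunoglobulin, while IGJ to IGLL1, VH26L1 to IGLL1 and PIGR to epithelium overlap.

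Within the 4 heavy chain rows, VH26L1 held 97.8% and 97.2% of the reads under hydrogen sulfide and 96.2% and 97.7% in the controls. The minor rows made up a share that varied from library to library. VH26L2 had 153 and 52.8 reads per 10000 reads of VH26L1 in control replicates 1 and 2, and 2.18 and 66.1 in hydrogen sulfide replicates 1 and 2. VH26L8 had 134 and 99.7 in the controls and 116 and 51.7 after exposure, and VH26L10 had 112 and 86.4 against 109 and 172. The groups overlapped in all 3 of these proportions. Gaps between libraries of a group were set beside those of the 200 tested genes nearest in mean level over all libraries. The gap between the exposed libraries was larger in VH26L2 than in 99.0% of these genes, and the gap between the controls larger than in 92.5%. The mean level of VH26L2 was set mostly by the controls. With only 1 and 23 reads in the exposed libraries, nothing is read from the first of these ranks. The gap of IGLL1 between the controls, 0.09 on the log2 scale, was larger than in only 14.5% of its 200 nearest genes, so the light chain level was close in these 2 libraries.

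Another 6 heavy chain rows of the table were not among the 7. Their choice was made after the files had been seen. The rows VH26L5 and VH26L11 carry the same name stem. LOC107049444, LOC107049105, LOC107049423 and LOC107049429 are variable segments on the same chromosome as VH26L1 in the reference table, and their distance from it was not examined. LOC107049444 stood at 1.71 and 3.89 CPM under hydrogen sulfide against 12.8 and 17.04 CPM in the controls (-2.41 ± 0.48 in log2 fold change and its SE, adjusted p = 0.675 by edgeR). VH26L5 stood at 1.30 and 2.26 CPM against 6.10 and 4.01 CPM (-1.50 ± 0.45 in log2 fold change and its SE, adjusted p = 0.829 by edgeR). LOC107049105 had a log2 fold change of -1.61 (SE 0.38; edgeR adjusted p = 0.753) and LOC107049423 of -1.83 (SE 0.44; edgeR adjusted p = 0.759). None of these 4 passed. In each of them both exposed libraries were lower than both controls, next to 17.2% of all tested genes.

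LOC107049429 had 0 reads in both exposed libraries and 5 and 62 reads in the controls, and VH26L11 had 3 and 0 reads against 3 and 5. Both were too low to be tested. A count of 0 allows a level of up to 0.139 and 0.136 CPM in hydrogen sulfide replicates 1 and 2. Relative to VH26L1, 3 of the 4 tested rows stood higher in both exposed libraries than in both controls. VH26L1 was itself chosen with its log2 fold change of -2.53 known, and only 0.447% of all tested genes had -2 or lower. Most genes would therefore stand higher relative to it, and nothing is read from this count. The share of all genes that did so was not determined here. LOC107049105 had 80.8 and 83.3 reads per 10000 against 38.9 and 47.4, VH26L5 had 61.2 and 144 against 59.6 and 36.2, and LOC107049423 had 30.6 and 51.7 against 21.3 and 27.7. LOC107049444 overlapped, with 80.8 and 247 against 125 and 154.

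**Figure D3:**
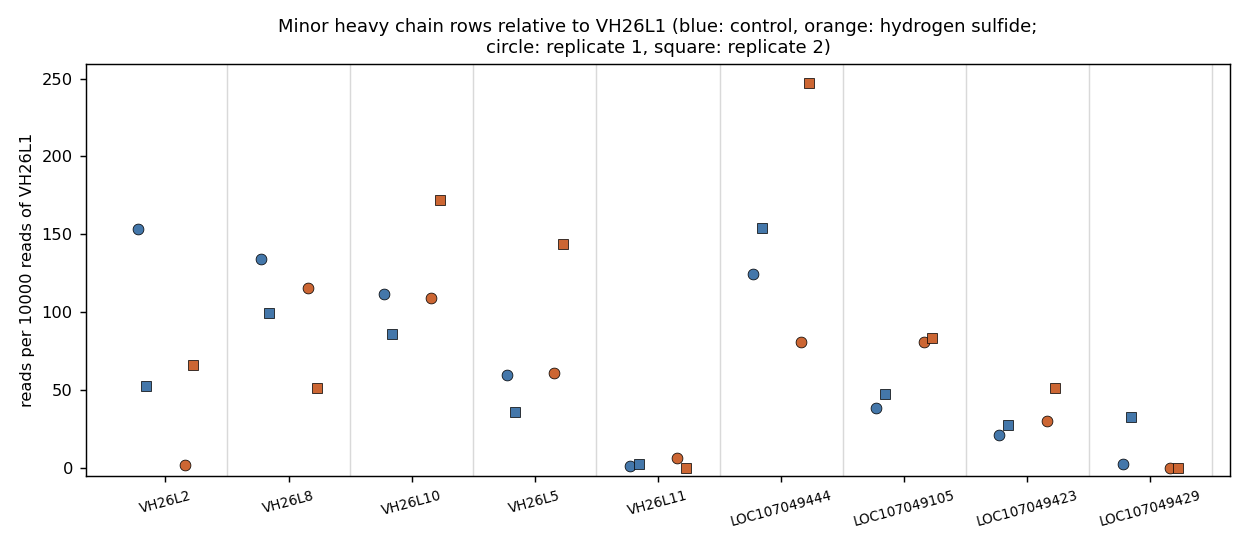
Reads of 9 minor heavy chain rows per 10000 reads of VH26L1 in each library, with controls in blue, exposed libraries in orange, circles for replicate 1 and squares for replicate 2. LOC107049105, VH26L5 and LOC107049423 lie higher in both exposed libraries than in both controls, and LOC107049429, with few reads, lies lower. The groups overlap in the other rows, and VH26L2 ranges from 2.18 to 153. Nothing is read from these directions, because VH26L1 was chosen with its values known.

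Other genes of the antibody pathway were described through gene lists chosen with earlier results of these data known. The test was edgeR's quasi-likelihood test with Benjamini-Hochberg adjustment over all 16545 genes, and it called 0 genes, or 0.0%, with a smallest adjusted p of 0.571. Unadjusted, 926 genes (5.6%) had an edgeR p under 0.05. DESeq2 called 132 of 16501 genes (0.8%), of which 82 were lower (0.497%) and 50 higher (0.303%). Over all tested genes, 48.4% had a lower level after exposure and the median log2 fold change was 0.01.

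Genes that mark antibody-secreting cells were lower in 12 of 17 tested members, with a median log2 fold change of -0.72, and 10 lay without overlap below the controls, next to 17.2% of all tested genes. DESeq2 called 6 of the 17, each lower, where it called 0.497% of all genes lower, and edgeR called 0. Besides the 3 described next, the 6 were IRF4 (adjusted p = 0.0159 by DESeq2), MZB1 (0.0251) and TXNDC5 (0.0320). CCR10, in mammals a homing receptor of mucosal plasma cells, stood at 0.370 and 0.271 CPM under hydrogen sulfide against 2.62 and 2.77 CPM without it (-3.05 ± 0.46 in log2 fold change and its SE, adjusted p = 0.571 by edgeR and 0.0113 by DESeq2). The exposed values of CCR10 rest on few reads, and it passed the filter for low counts only through the controls, where it was higher. TNFRSF13B, a receptor for B cell survival factors, stood at 6.90 and 4.79 against 21.9 and 22.9 CPM (-1.94 ± 0.27 in log2 fold change and its SE, adjusted p = 0.571 by edgeR and 6.11e-05 by DESeq2). The transcriptional coactivator POU2AF1, which acts at immunoglobulin promoters, stood at 31.3 and 29.0 against 67.6 and 96.9 CPM (-1.45 ± 0.23 in log2 fold change and its SE, adjusted p = 0.571 by edgeR and 0.00279 by DESeq2). The 5 members higher after exposure were XBP1, SEC11C, ITM2C, SDC1 and ELL2, and each overlapped between the groups. In that order, they differed by 0.07, 0.13, 0.17, 0.35 and 0.42 log2 units (SE 0.16, 0.21, 0.23, 0.26 and 0.48). Many other cells of the airway also use XBP1 and SDC1. The part of other cells in the values of this list, lower or higher, was not tested.

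B cell genes were lower in 22 of 23 tested members, with a median of -0.70, and 15 lay without overlap below the controls, next to 17.2% of all tested genes. DESeq2 called 1 of the 23, where it called 0.497% of all genes lower: the antigen receptor kinase SYK, at 31.7 and 35.9 CPM against 65.3 and 72.9 CPM (-1.03 ± 0.17 in log2 fold change and its SE, adjusted p = 0.571 by edgeR and 0.0303 by DESeq2). The kinase BTK showed a log2 difference of -1.04 (SE 0.21; edgeR adjusted p = 0.676), and the B lineage factor PAX5 of -0.90 (SE 0.22; edgeR adjusted p = 0.755). Relative to the mean level of this list, summed immunoglobulin CPM was lower by 1.85 log2 units in the exposed libraries (5.83 and 5.54 against 7.78 and 7.30). Relative to the antibody-secreting cell list it was lower by 1.68 (5.93 and 5.57 against 7.62 and 7.24). The log2 fold changes of IGLL1, VH26L1 and IGJ were each lower than that of any B cell gene tested. Among the antibody-secreting cell genes only CCR10, with few reads in the exposed libraries, had a lower value than these 3 rows. These orders and the differences relative to the lists are descriptions only, because the antibody rows were chosen with their values known. The level of a list is not a count of cells, and the part of cells other than B cells in the B cell list was not tested.

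Genes that diversify immunoglobulin genes by recombination, gene conversion, hypermutation or class switching had a median of -0.31, with 14 of 16 lower, 9 of them without overlap (17.2% of all genes), and 0 called by edgeR or DESeq2. BRCA1, of homologous recombination, stood at 40.2 and 35.0 CPM against 65.3 and 74.9 CPM (-0.90 ± 0.17 in log2 fold change and its SE, adjusted p = 0.660 by edgeR). Cytokines, chemokines and adhesion molecules that draw antibody-secreting cells to mucosa or sustain them had a median of -0.41, with 13 of 17 lower. Of the 17, 6 were lower without overlap (17.2% of all genes) and 2 higher without overlap (15.3% of all genes). DESeq2 called 1 of the 17, where it called 0.497% of all genes lower. This was LOC422511, which the reference table names as the B cell chemokine CXCL13L3, at 7.54 and 5.70 CPM against 14.8 and 20.6 CPM (-1.42 ± 0.30 in log2 fold change and its SE, adjusted p = 0.708 by edgeR and 0.0411 by DESeq2). The B cell survival factor gene TNFSF13B stood at 16.2 and 19.1 against 34.7 and 34.4 CPM (-0.97 ± 0.18 in log2 fold change and its SE, adjusted p = 0.661 by edgeR). For IL21R, a cytokine receptor of B and T cells, the log2 difference was -1.13 (SE 0.36; edgeR adjusted p = 0.830). Without hydrogen sulfide replicate 1 the median of this list was -0.65.

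The machinery that folds and exports secreted proteins in the endoplasmic reticulum had a median of 0.01, with 15 of 31 members lower and 16 higher, and neither tool called any. The sign of this median turned with library totals in place of TMM (-0.07), and leaving out a library gave medians from -0.15 to 0.21. LMAN1, a cargo receptor for glycoproteins, stood apart at 138 and 163 CPM against 240 and 274 CPM (-0.77 ± 0.18 in log2 fold change and its SE, adjusted p = 0.741 by edgeR).

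Around the transporter, genes of vesicle traffic and of PIGR control known from mammals had a median of -0.07, with 12 of 19 lower, 7 higher and 0 called by either tool. With library totals in place of TMM their median was -0.15. IRF1, an interferon-induced activator, stood at 183 and 122 CPM against 201 and 273 CPM (-0.64 ± 0.28 in log2 fold change and its SE, adjusted p = 0.955 by edgeR). The tyrosine kinase YES1 had a log2 fold change of 0.27 (SE 0.15; edgeR adjusted p = 0.999), and USF2 of -0.42 (SE 0.29; edgeR adjusted p = 0.999). Of 7 antibody receptor entries, 4 had a matching row, and TRIM21, GGFCR and FCGRT had none. Of the matched rows, only PLA2R1, whose chicken product is the yolk sac receptor for IgY, and FCRL2 had enough reads to be tested. PLA2R1 stood at 187 and 256 CPM against 169 and 152 CPM (0.47 ± 0.21 in log2 fold change and its SE, adjusted p = 0.964 by edgeR), and FCRL2 had a log2 fold change of 1.07 (SE 0.76; edgeR adjusted p = 0.999).

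**Figure D4:**
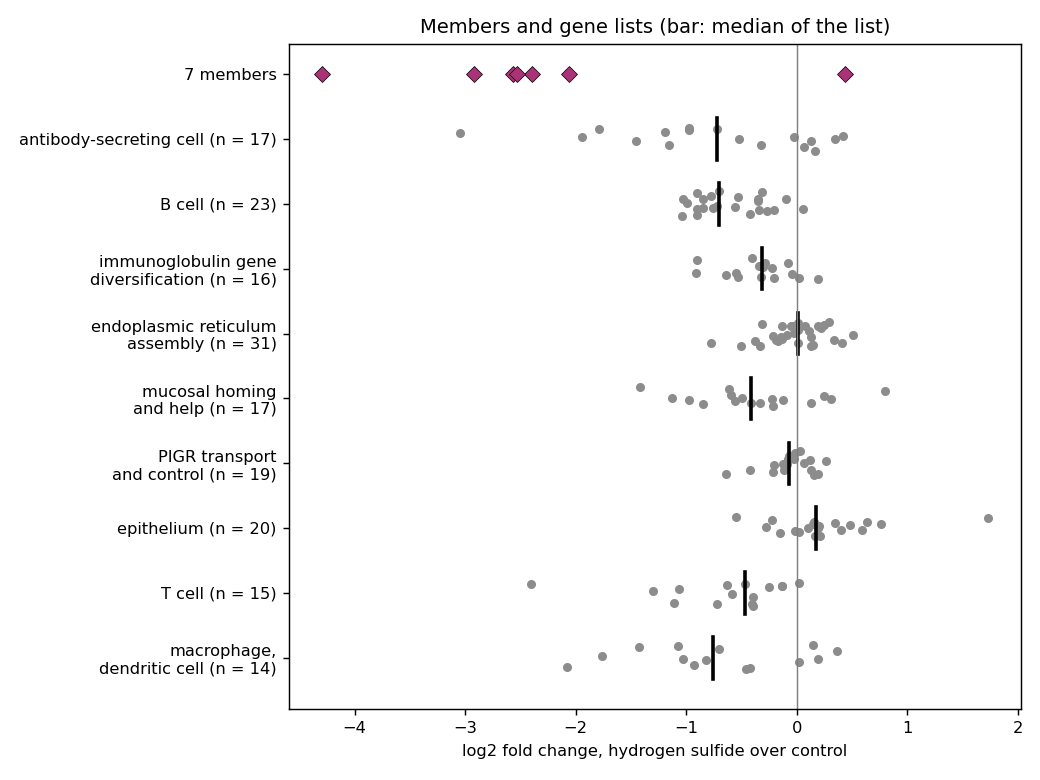
Log2 fold changes, hydrogen sulfide over control, of the 7 rows (diamonds) and of the tested members of 9 gene lists (points, with a bar at the median and the number of genes). The 6 antibody rows lie at -2.06 or lower, the B cell list has a median of -0.70, and the lists of endoplasmic reticulum assembly and PIGR transport are centred near 0.

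Markers of other cells in the tissue varied as well, and their part in the values above was not tested. For general epithelial genes the median was 0.18 (15 of 20 higher), and their summed level ran from 3232 to 3853 CPM after exposure and from 2979 to 3185 CPM in the controls. Measured against this list, PIGR overlapped between the groups (log2 4.86 and 4.13 against 4.57 and 4.01), and summed immunoglobulin differed by -2.67. The KRT18 row LOC101749333 of that list had a log2 fold change of 1.73 (SE 0.24; edgeR adjusted p = 0.571). For mucous cell genes the median was 1.37 (8 of 10 higher), and they summed to 6083 and 4167 CPM against 1218 and 2035 CPM. Their member with the smallest p was AGR2, needed for mucin folding (1.83 ± 0.27 in log2 fold change and its SE, adjusted p = 0.571 by edgeR). DESeq2 called 4 mucous cell genes, each higher, namely AGR2 (adjusted p = 3.49e-05), LOC395381, listed as the mucin MUC5B in the reference table (0.000114), the mucin row MUC (0.00681) and SPDEF (0.0454), and of the epithelial list it called 1, the KRT18 row (0.000286), where 0.303% of all genes were called higher. The epithelial median was 0.29 without hydrogen sulfide replicate 1 and 0.10 without its replicate 2. The mucous median was 0.73 without control replicate 1 and 2.10 without control replicate 2.

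Macrophage and dendritic cell genes had a median of -0.76 (10 of 14 lower), with FLT3 at -1.76 (SE 0.29; edgeR adjusted p = 0.571), and T cell genes a median of -0.47 (14 of 15 lower), with CD2 at -1.30 (SE 0.28; edgeR adjusted p = 0.727). By edgeR 0 genes of either list were called, and over all genes DESeq2 called 0.497% lower. DESeq2 called 3 macrophage and dendritic cell genes, each lower, namely FLT3 (adjusted p = 0.00203), CYBB (0.00501) and XCR1 (0.0395), and 1 T cell gene, the granzyme gene GZMA (-2.40 in log2 fold change, adjusted p = 0.0153). Their summed levels were 322 to 437 CPM after exposure against 519.5 to 627 CPM in the controls for macrophages, and 194 to 218 against 259 to 343 CPM for T cells. Leaving out control replicate 1 gave a T cell median of -0.73, and leaving out control replicate 2 gave -0.30. The B cell list summed to 1247 and 1215 against 1524 and 2105 CPM. No tested marker of these 3 lists was at 0. Ciliated cell genes had a median of 0.03 (7 of 14 higher) and basal cell genes of -0.08 (5 of 9 lower), and both changed sign when a library was left out. RSPH1 of the ciliated list (0.69 ± 0.40 in log2 fold change and its SE, adjusted p = 0.999 by edgeR) and TP63 of the basal list (-0.71, SE 0.21; edgeR adjusted p = 0.817) did not pass.

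Lists of the muscle and cartilage around the airway turned on single libraries. Skeletal muscle genes (median 0.23 over 12) and cartilage genes (0.38 over 13) changed sign when 1 library was left out, from -0.49 without control replicate 2 to 2.14 without control replicate 1 in muscle and from -0.40 without control replicate 1 to 2.18 without control replicate 2 in cartilage. Red blood cell genes (0.51 over 7) and thyroid, thymus and oesophagus genes (-0.65 over 6) had 0 calls by edgeR and DESeq2. Through the reference, DTNB stood for MYLPF in the muscle list and ALAS1 for ALAS2 in the red blood cell list. In the same way KRT15 stood for KRT13 in the thyroid, thymus and oesophagus list. These rows carry the names of other genes, so the lists may hold genes that are not markers of those tissues. The red blood cell median was 1.03 without hydrogen sulfide replicate 1, 0.01 without its replicate 2 and 0.17 without control replicate 2, whereas the thyroid, thymus and oesophagus median lay between -0.64 and -0.44 when 1 library was left out. The members of these 4 lists with the smallest unadjusted p were MYH1A, a muscle myosin (-1.41, SE 0.96), SOX9, the cartilage regulator (0.42, SE 0.65), the globin gene HBG2 (1.92, SE 0.97) and the thyrotropin receptor gene TSHR (-1.58, SE 0.58), none of which passed in edgeR or DESeq2. TSHR stood at 0.278 and 0.226 CPM in the exposed libraries against 0.763 and 0.766 CPM in the controls. It passed the filter for low counts only through the controls, where it was higher.

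Genes with a profile like that of the antibody rows were ranked by the distance between log2 CPM profiles over the 4 libraries. Each profile was centred on its mean, and 10489 genes with a mean of at least 5 CPM were compared. The rows followed here and rows without a plain gene symbol, such as those named LOC, were left out of the ranking. A row named LOC could therefore lie nearer than the genes listed. IGLL1 and IGJ lay 0.288 log2 units apart, and VH26L1 0.280 from their mean. Among the ranked genes, BLVRA, biliverdin reductase, was nearest to that mean, at 0.147. It had 23.0 and 15.9 CPM in the exposed libraries against 115 and 98.3 CPM in the controls. NAE1, a subunit of the enzyme that activates NEDD8, followed at 0.545, the class I histocompatibility gene BF2 at 0.565, the lymphocyte receptor LAG3 at 0.574 and TNFRSF13B at 0.602. SYT13, DSCAM, GBP, GPR55 and GZMA completed the first 10, at 0.723 to 0.946. VH26L10 was at 0.602, VH26L8 at 0.980 and VH26L2 at 3.22 by the same measure. Of the ranked genes, the potassium channel gene KCNJ16 was nearest to PIGR, at 0.0342. TACC2 at 0.0537, PON2 at 0.0561, FREM2 at 0.0652 and the cytokine gene IL7 at 0.0698 followed. The profile of PIGR was highest in hydrogen sulfide replicate 1 and lowest in control replicate 2. With only 4 libraries, these distances describe likeness and are not a test.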

How the data were processed

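Reads per gene were deposited by the authors as raw counts in a single table of 4 libraries, without normalization. The submitters' processing notes name HISAT2, an aligner. No source used here names the counting program, genome build, annotation or strand setting, so coordinates are not printed, and antisense, overlapping and immunoglobulin genes are uncertain. A RefSeq gene table of GRCg7b supplied names, neighbours and the W-linked genes. Of the 7 rows, 4 have an entry there, and VH26L2, VH26L8 and VH26L10 have none.

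Counts were filtered with filterByExpr, scaled by TMM and tested by quasi-likelihood in edgeR 4.0.16, run under R 4.3.3 (two-sided, no covariate, 2 residual degrees of freedom, Benjamini-Hochberg adjustment over 16545 genes), and all 7 rows passed the filter. The threshold was an adjusted p of 0.05. DESeq2 1.42.0 was an alternative. Standard errors are the absolute log2 fold change over the square root of F. Log2 CPM used a prior count of 2. The code was checked on simulated counts. Intervals are exact binomial (SciPy 1.17.1). Total counts ranged from 16899066 to 22706119.

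The rows, the 17 gene lists (301 entries, of which 254 matched by symbol, 15 through the reference and 32 not) and the tests were chosen with earlier results of these data known. Named genes are the 7 rows, up to 3 genes of 5 lists and 1 of the others by smallest p, and the nearest profiles. The reference table holds no gene descriptions, transcript lengths or sequences, so other immunoglobulin rows were found by name and by segment type, and levels were not compared between genes per length. XBP1, SDC1, ELL2, SEC11C, ITM2C, IL10, further list genes that DESeq2 called, the rows overlapping IGJ and PIGR, and 5 other heavy chain rows with a mean under 5 CPM were named after their values were seen.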

Additional observations from a re-analysis of the deposited data

How the results depend on the processing

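All 66 refitted log2 fold changes of the 6 antibody rows stayed below 0. They came from 11 refits, with other scalings, no filter, blocks, DESeq2, library sizes without the 7 rows, or 1 library fewer. Nothing is read from this sign, because the rows were chosen with these values known. IGLL1 ranged from -2.56 to -2.24, IGJ from -2.78 to -2.33 and VH26L1 from -2.76 to -2.33 on the log2 scale. PIGR ranged from 0.15 to 0.79. The log2 difference in antibody share of counts was -2.50, from -2.67 to -2.34 without 1 library, and -2.50 both over genes typed mRNA and with the other heavy chain rows added. That of immunoglobulin to PIGR was -2.87, from -3.15 to -2.60 without 1 library and from -3.02 to -2.67 with IGLL1, VH26L rows or IGJ alone or the epithelial list in place of PIGR. The share of VH26L1 among the heavy chain rows differed by 0.56 percentage points, from -0.19 without control replicate 1 to 1.32 without control replicate 2. DESeq2 called 132 genes, 17 of them among the 244 tested list genes, against 0 and 0 in edgeR under every other setting. The replicate block gave 0 calls as well, and so did a block of hen-like and cock-like pairs. Equal replicate numbers did not mark shared deviations (r = -0.00197 over 16545 genes) and the labels give no pairing. Of 187 refitted list medians, 12 took the other sign, in 5 lists (endoplasmic reticulum, ciliated, basal, muscle and cartilage). The comparison of levels per length and the sequence features were not run. Minor heavy chain rows with few reads limit what can be said of their proportions.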

Other observations

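Genes that lie next to the light chain, joining chain and transporter genes in the reference table had smaller differences than the antibody genes. Nothing is read from this, because the antibody genes were chosen with their values known. Of all tested genes, 0.447% had a log2 fold change of -2 or lower. Of the 3 tested neighbours of IGLL1, log2 fold changes ran from -0.49 to 0.17, and of the 6 of IGJ from -0.52 to 0.25, against -2.39 and -2.57 for the genes themselves. LOC422643, which overlaps IGJ in that table, stood at 0.324 and 2.26 CPM in the exposed libraries and at 1.85 and 0.354 CPM in the controls. The 2 tested neighbours of PIGR had -0.66 and 0.22, and LOC107055195, which overlaps it, stood at 4.07 and 2.94 CPM against 8.94 and 2.12 CPM. IL10, another neighbour of PIGR and a cytokine gene, stood at 0.139 and 0.362 CPM against 0.545 and 0.413 CPM and was too low to be tested.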
